A study of Homo sapiens with 3 samples.

Results

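The genes of the mitochondrial ribosome were examined in LNCaP cells treated with siRNAs against SLC45A3-ELK4. They were selected by name alone: every gene whose symbol in the platform annotation starts with MRPL or MRPS and a digit, and which at least 1 probe set names on its own. This gave 74 genes, 48 MRPL and 26 MRPS symbols measured by 78 probe sets, among 18417 genes named in the same way. The study holds 3 Affymetrix arrays of LNCaP, an established androgen-responsive line from a prostate carcinoma metastasis: 1 array with the siRNA titled siSE1, 1 with siSE2, both against the SLC45A3-ELK4 chimeric transcript, and 1 with a negative control siRNA, called siGl2 in the design text. All cells were grown in RPMI1640 with 10% FBS, transfected with RNAiMAX and harvested after 72 hours. The transfection field of the array titled siSE2 names siSE1, while its other fields name siSE2; the title was followed, and if that field is right both arrays carry siSE1. Whether each array had a culture of its own is not stated in the labels, and the p-values below cover only the spread between arrays, which may be technical. Values are log2 signals, and a difference is an siRNA array minus the control array, so a positive one means more signal with the siRNA.

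The mitochondrial ribosome translates the few proteins encoded by mitochondrial DNA, all of them subunits of the respiratory chain and ATP synthase. Its RNAs are mitochondrial, but every protein is encoded in the nucleus, made in the cytosol and imported. Some of these proteins have counterparts in bacterial ribosomes and others are found only in mitochondria; universal names give the first a u or b and the second an m. Many promoters of such nuclear genes hold binding sites of ETS-family factors (GABPA is the best known), NRF1 and YY1. ELK4, a parent of the chimera, is itself an ETS-family factor.

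SLC45A3 read 9.14 with siSE1 and 9.27 with siSE2, against 9.66 on the control array, a difference of -0.46 ± 0.15 (SE, n = 2 against 1; limma, adjusted p = 0.154). ELK4 read 8.45 and 8.20 with the siRNAs, against 8.50 on the control array (-0.18 ± 0.16, SE; limma, adjusted p = 0.582). Since these probe sets read the parent genes and not the fusion junction, the level of the chimera itself was not measured. Of 10 luminal markers listed, 6 were measured (KLK3, KLK2, KRT8, KRT18, HOXB13 and EPCAM) and read from 8.75 to 10.73. Above the filter level of 5.12 were 1 of 2 basal, 4 of 6 stromal, 2 of 4 blood cell and 0 of 3 endothelial markers measured. The genes PTPRC, CD3E, DCN, LUM and PECAM1 read from 2.41 to 4.28, while of the stromal list COL1A1, COL1A2 and COL3A1 read from 5.43 to 6.99. The endothelial genes CDH5 and VWF read from 4.19 to 4.74. Of the basal list KRT5 read from 4.92 to 5.21 and KRT14 from 5.90 to 6.20. ACTA2, a smooth muscle actin gene, read 7.78 with siSE1 and 7.50 with siSE2, against 8.11 on the control array (-0.47 ± 0.16, SE; limma, adjusted p = 0.178). LYZ, a macrophage and secretory-cell gene, read 6.09 with siSE1 and 5.11 with siSE2, against 4.41 on the control array, and CD68 read 7.53 and 7.67 with the siRNAs, against 7.30 on the control array; their part in the results was not tested.

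Of the 74 genes, 50 encode proteins of the large subunit and 23 of the small subunit by their place in ribosome structures. MRPS18A and MRPS30, named as small subunit proteins, sit in the large subunit and are counted there. MRPS31P5 is a pseudogene and belongs to neither. Among the proteins, 43 have a bacterial counterpart and 30 are found only in mitochondria. MRPL13 (4.82, 4.87 and 5.05 with siSE1, siSE2 and control), MRPS18C (4.23, 4.34 and 4.18) and MRPS31P5 (5.36, 4.76 and 5.20) had means below the filter, the 30th percentile of all genes, which left 71 tested. The filter used the mean of the 3 arrays. MRPL51, MRPS6, MRPS24 and MRPS28 share their probe sets with other genes and are not members; MRPS36 is not analysed here. MRPL20 had 2 probe sets and MRPS18B had 3 whose values were identical on each array, so they count as 1 measurement; the 2 probe sets of MRPL36 differed and both stood lower with both siRNAs.

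As a family the mitoribosomal protein genes lay close to the control, with a few genes standing lower and a few higher with both siRNAs. The median difference of the 71 genes was -0.0011, against -0.019 over the 12892 genes tested. Its sign depended on the scaling: with cyclic loess, equal array medians and quantile scaling it was 0.0652, 0.0755 and 0.0824, where the medians of all genes were 0.0043, 0.06 and 0.02. The interquartile range of the members ran from -0.21 to 0.09, and that of all genes from -0.19 to 0.14. Lower with both siRNAs were 29 members (40.8%, against 41.7% of all genes), higher with both were 20 (28.2%, against 36.4%), and 22 went opposite ways (31%, against 21.7%). No member passed the test over all genes (limma, siRNA arrays against control, adjusted p under 0.05: 0 higher and 0 lower, where 0.248% and 0.714% of all genes passed). At an unadjusted p under 0.05 limma gave 10 members lower and 3 higher, 14.1% and 4.23% of the members, against 11.3% and 6.46% of all genes. These limma counts were 6 and 5 with cyclic loess, where 10% and 7.02% of all genes passed. They were 5 and 4 with quantile scaling (8.01% and 6.79% of all genes) and 6 and 6 with equal medians (7.41% and 11.2%). This test has 1 residual degree of freedom, the difference between the siRNA arrays, and takes the lone control array to vary as they do. To this limma adds a variance estimated over all genes, weighted as 8.46 degrees of freedom. The SEs and p-values given here therefore rest mostly on that shared variance and not on the spread of each gene. MRPL48, whose siRNA arrays differed by 0.01, had an SE of 0.14.

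By size, 10 members were at least 1.2-fold lower with both siRNAs (14.1%, against 11.4% of all genes) and 3 were at least 1.2-fold higher with both (4.23%, against 6.76%). The 10 were MRPL34, MRPL46, MRPS11, MRPL52, MRPL21, MRPL57, MRPL16, MRPS18A, MRPL36 and MRPL42, and the 3 were MRPS21, MRPL11 and MRPL48. At 1.5-fold with both siRNAs only MRPL34 was lower (1.41%, against 1.53% of all genes) and only MRPS21 higher (1.41%, against 0.582%). These shares lie near those of all genes, so the counts describe single genes and not the family. The balance of lower and higher members depended on the scaling. At least 1.2-fold lower and higher with both siRNAs were 6 and 4 members with cyclic loess (9.63% and 7.17% of all genes), 6 and 4 with quantile scaling (8.59% and 7.73%) and 5 and 5 with equal medians (7.38% and 11.7%). Under these scalings 0 members were 1.5-fold lower with both siRNAs, given without shares of all genes, so nothing is drawn from that count.

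MRPL34, a large subunit protein with the bacterial counterpart bL34, stood lowest. It read 8.39 with siSE1 and 8.05 with siSE2, against 9.00 on the control array, 1.71-fold lower on average (log2 -0.78 ± 0.17, SE, n = 2 against 1; 95% interval -1.16 to -0.40; limma, adjusted p = 0.0662). Both siRNA arrays lay below the control, and the gap between them, 0.34, was smaller than the mean change. That held for 59.2% of the tested members and 59.5% of all genes, so it does not set MRPL34 apart. The adjusted p of MRPL34 ran from 0.0595 to 0.199 over 8 other settings, so it passed under none of them.

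**Figure D1:**
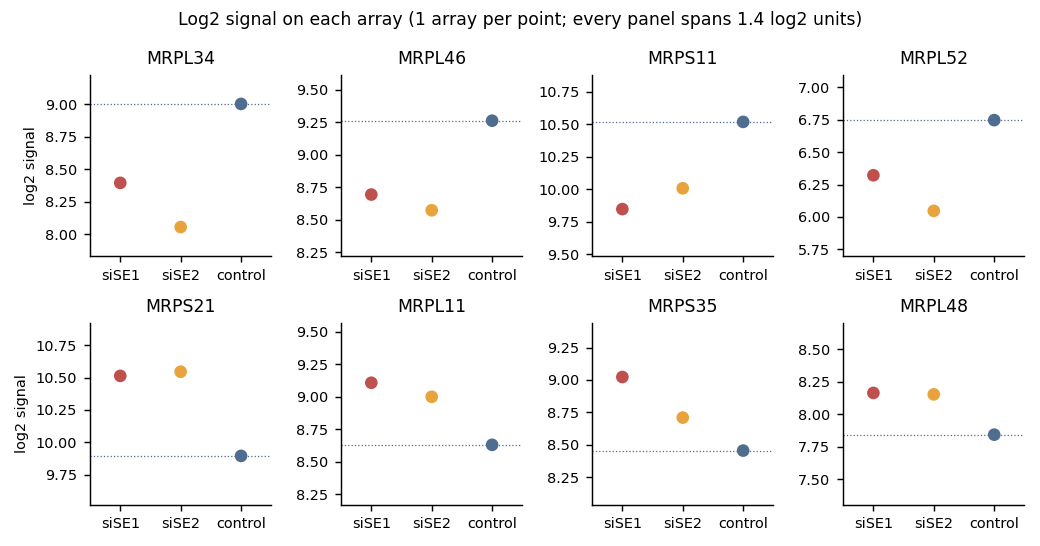
Log2 signal (vertical axis) on the siSE1, siSE2 and control arrays, 1 point per array, for 4 members that stood lower and 4 that stood higher; every panel spans the same log2 range and the dotted line is the control value. The 8 genes were chosen among members on the same side of the control with both siRNAs. That agreement therefore follows from the choice. MRPL34 is 0.61 and 0.95 below the control, and MRPS21 is 0.62 and 0.65 above it.

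MRPL46 and MRPS11 stood lower by almost the same amount, and they are neighbours that start from a shared region in opposite directions. MRPL46, a mitochondria-specific protein of the central protuberance of the large subunit, read 8.69 with siSE1 and 8.57 with siSE2, against 9.26 on the control array (log2 -0.63 ± 0.14, SE; limma, adjusted p = 0.0738). MRPS11, the small subunit counterpart of bacterial uS11, read 9.85 with siSE1 and 10.01 with siSE2, against 10.52 on the control array (-0.59 ± 0.15, SE; limma, adjusted p = 0.0914). The order of the siRNAs differed: MRPL46 was lower with siSE2 and MRPS11 lower with siSE1.

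The promoter windows of this pair are shown because the genes lie head to head and both stood lower. Each window runs from 250 bases before to 50 after the RefSeq start (GRCh38.p14), 5′ to 3′ on the strand of its gene. The MRPL46 window is chr15:88467339-88467638, minus strand, and the MRPS11 window is chr15:88467458-88467757, plus strand; the starts are 320 bases apart and the windows share 181 bases. Capitals mark letters searched on both strands for YY1 (AAGATGGC), ETS factors (CCGGAAG) and NRF1 (GCATGCGC).
MRPL46: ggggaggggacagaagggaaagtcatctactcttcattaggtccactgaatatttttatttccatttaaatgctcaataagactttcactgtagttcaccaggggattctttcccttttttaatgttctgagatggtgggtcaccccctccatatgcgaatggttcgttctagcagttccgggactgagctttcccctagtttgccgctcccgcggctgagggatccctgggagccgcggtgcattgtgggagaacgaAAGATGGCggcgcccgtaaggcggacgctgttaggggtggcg
MRPS11: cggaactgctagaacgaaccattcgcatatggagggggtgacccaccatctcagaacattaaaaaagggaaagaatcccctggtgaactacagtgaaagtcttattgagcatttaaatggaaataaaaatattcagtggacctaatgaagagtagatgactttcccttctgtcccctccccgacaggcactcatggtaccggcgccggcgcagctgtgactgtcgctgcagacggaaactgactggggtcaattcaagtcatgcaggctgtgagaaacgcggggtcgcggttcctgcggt
The MRPL46 window held the YY1 letters once, starting at base 9 of the transcript, and the MRPS11 window held none of the 3.

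Other members also have a neighbour that starts close by in the opposite direction. With starts at most 1000 bases apart, 25 of the 66 members with a promoter in the table had such a neighbour, and 17 pairs had both genes tested. In 6 of the 17 pairs both genes had the same sign of mean difference, against 59.3% of 610 such pairs over all tested genes. Many of the opposite signs rest on differences smaller than their SE. MRPL32 differed by -0.02 ± 0.15 and PSMA2 by 0.01 ± 0.14, and MRPL14 by 0.05 ± 0.16 and TMEM63B by -0.03 ± 0.14 (SE). The sign count therefore says little about these pairs. MRPL57, a mitochondria-specific large subunit protein, read 6.90 with siSE1 and 6.78 with siSE2, against 7.27 on the control array (-0.43 ± 0.15), and its neighbour SKA3, a kinetochore gene, differed by -0.47 ± 0.16 (SE; limma, adjusted p = 0.172 for each). By contrast MRPS12, the counterpart of uS12 in the decoding centre, differed by -0.25 ± 0.14, while its neighbour SARS2, the mitochondrial seryl-tRNA synthetase, differed by 0.35 ± 0.14 (SE; limma, adjusted p = 0.390 and 0.249). MRPL40 differed by 0.07, and HIRA, a histone chaperone gene whose start lies 812 bases away, by -0.69 ± 0.14 (SE; limma, adjusted p = 0.0581). MRPL27 differed by 0.13, while EME1, a DNA repair nuclease subunit, differed by -0.49 ± 0.14 (SE; limma, adjusted p = 0.123).

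**Figure D2:**
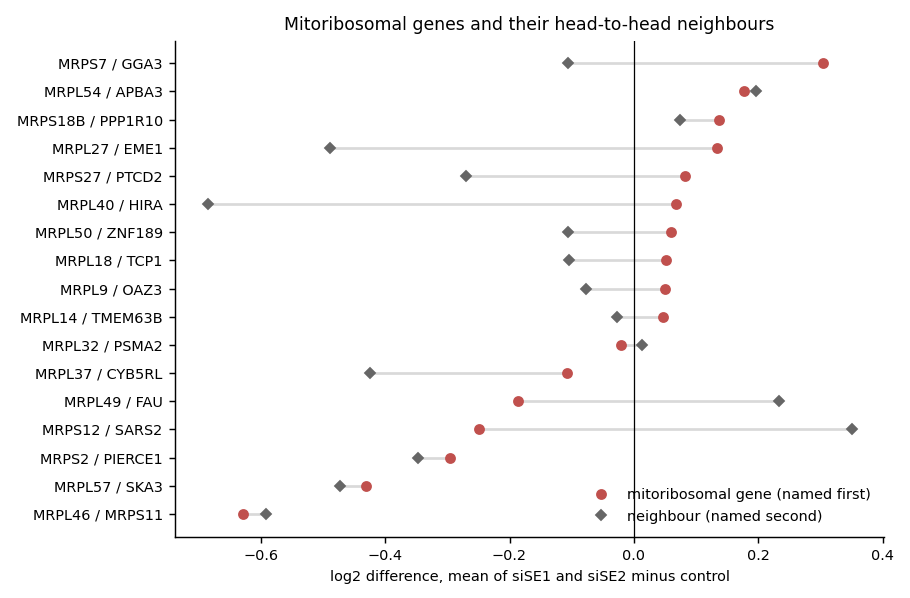
Mean log2 difference of the siRNA arrays from the control (horizontal axis) for the 17 head-to-head pairs with both genes tested, the mitoribosomal gene as a circle and its neighbour as a diamond. MRPL46 with MRPS11 and MRPL57 with SKA3 lie together below 0, while in 11 of the 17 pairs the marks fall on opposite sides of 0. Many of these 11 pairs hold a mark close to 0, as MRPL32 with PSMA2 at -0.02 and 0.01.

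Other large subunit genes stood lower by smaller amounts. MRPL52, found only in mitochondria, read 6.32 with siSE1 and 6.05 with siSE2, against 6.75 on the control array (-0.56 ± 0.16, SE; limma, adjusted p = 0.122). MRPL21, the counterpart of bL21, read 9.28 with siSE1 and 9.00 with siSE2, against 9.59 on the control array (-0.46 ± 0.16). Both were lower with siSE2 than with siSE1. MRPL16, the counterpart of uL16 near the tRNA sites, read 8.08 with siSE1 and 8.01 with siSE2, against 8.41 on the control array (-0.37 ± 0.14). MRPL36 (bL36) differed by -0.33 ± 0.14, MRPS18A by -0.34 ± 0.15 and the mitochondria-specific MRPL42 by -0.30 ± 0.14. None of these passed over all genes (limma, adjusted p from 0.122 to 0.302 for these 6 genes).

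MRPL52 is shown because its window held all 3 sets of letters searched, among the members printed (chr14:22829637-22829936, plus strand, GRCh38.p14).
MRPL52: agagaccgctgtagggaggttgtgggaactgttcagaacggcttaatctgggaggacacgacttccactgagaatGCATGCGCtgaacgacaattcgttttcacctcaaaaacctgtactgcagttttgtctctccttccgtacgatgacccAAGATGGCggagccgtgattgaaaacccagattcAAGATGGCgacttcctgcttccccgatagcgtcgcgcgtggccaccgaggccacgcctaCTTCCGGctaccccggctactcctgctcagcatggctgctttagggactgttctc
Relative to the start, the NRF1 letters began at base -175, the YY1 letters at -98 and -64, and the ETS letters, on the other strand, at -5.

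Higher with both siRNAs were genes of both subunits. MRPS21, the counterpart of bS21, which lies near uS11 on the platform of the bacterial small subunit, read 10.51 with siSE1 and 10.54 with siSE2, against 9.90 on the control array. It was 1.55-fold higher on average (log2 0.63 ± 0.14, SE, n = 2 against 1; 95% interval 0.31 to 0.95; limma, adjusted p = 0.0702). The siRNA arrays differed by 0.03, less than their mean distance from the control, which also held for 59.5% of all genes. Of the members it alone passed under any of the 8 other settings: the adjusted p was 0.0467 with equal array medians, 0.0482 with cyclic loess and 0.0497 with an intensity trend in limma, and reached 0.166 with no filter. Of the 12892 genes tested, 165, 188 and 181 passed with equal medians, cyclic loess and the intensity trend. A single passing member among 71 is therefore no result about the family. The difference of MRPS21 had the opposite sign to that of MRPS11.

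The MRPS21 window (chr1:150293611-150293910, plus strand, GRCh38.p14) is shown because it holds the ETS letters 2 times close to the start, at bases -11 and 8, both on the other strand.
MRPS21: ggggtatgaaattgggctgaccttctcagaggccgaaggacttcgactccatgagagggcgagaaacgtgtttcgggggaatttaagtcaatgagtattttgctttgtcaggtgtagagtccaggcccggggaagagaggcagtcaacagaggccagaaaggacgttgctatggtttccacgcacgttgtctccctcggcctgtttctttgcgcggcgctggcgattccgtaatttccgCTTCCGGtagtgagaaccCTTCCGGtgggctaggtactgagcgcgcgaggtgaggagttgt
The MRPL34 window (chr19:17292323-17292622, plus strand), shown as that of the gene with the lowest value, held none of the letters searched.
MRPL34: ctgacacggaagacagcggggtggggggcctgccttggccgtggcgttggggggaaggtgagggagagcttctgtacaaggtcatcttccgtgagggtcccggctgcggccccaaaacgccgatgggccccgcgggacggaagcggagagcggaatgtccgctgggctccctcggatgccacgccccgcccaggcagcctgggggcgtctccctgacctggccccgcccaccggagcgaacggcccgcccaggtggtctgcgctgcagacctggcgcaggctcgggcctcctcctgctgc

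MRPL11, the counterpart of uL11 at the base of the stalk that binds translation factors, read 9.11 with siSE1 and 9.00 with siSE2, against 8.63 on the control array (0.42 ± 0.14, SE; limma, adjusted p = 0.173). MRPL10 (uL10), which anchors the stalk, read 6.61 with siSE1 and 6.54 with siSE2, against 6.29 on the control array (0.28 ± 0.14; limma, adjusted p = 0.335). MRPL12 (bL12), the stalk protein itself, read 8.69 with siSE1 and 8.50 with siSE2, against 8.64 on the control array, so its siRNA arrays lay on both sides of the control. Its mean difference of -0.04 turned to between 0.0275 and 0.0349 with the 3 other scalings. MRPL48, found only in mitochondria, read 8.16 with siSE1 and 8.15 with siSE2, against 7.84 on the control array (0.32 ± 0.14, SE; limma, adjusted p = 0.282).

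In the small subunit, MRPS35, found only in mitochondria, read 9.02 with siSE1 and 8.71 with siSE2, against 8.46 on the control array (0.41 ± 0.17, SE; limma, adjusted p = 0.241). MRPS7 (uS7), which binds the head of the small subunit RNA, read 8.78 with siSE1 and 8.52 with siSE2, against 8.35 on the control array (0.30 ± 0.16). Both were higher with siSE1 than with siSE2 by more than 0.25. MRPS15 (uS15) differed by 0.18 ± 0.14, and in the large subunit MRPL41, MRPL22, MRPL30, MRPL27 and MRPL24 differed by 0.10 to 0.24. On the lower side MRPS33, found only in mitochondria, differed by -0.40 ± 0.17, MRPS14 (uS14) by -0.30 ± 0.16 and MRPS2 (uS2) by -0.30 ± 0.14. The paralogs MRPS18A, MRPS18B and MRPS18C, descended from 1 bacterial protein and placed in different parts of the ribosome, differed by -0.34, 0.14 and 0.10, the last of them below the filter. MRPS30 read 8.26 with siSE1 and 8.53 with siSE2, against 8.52 on the control array.

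**Figure D3:**
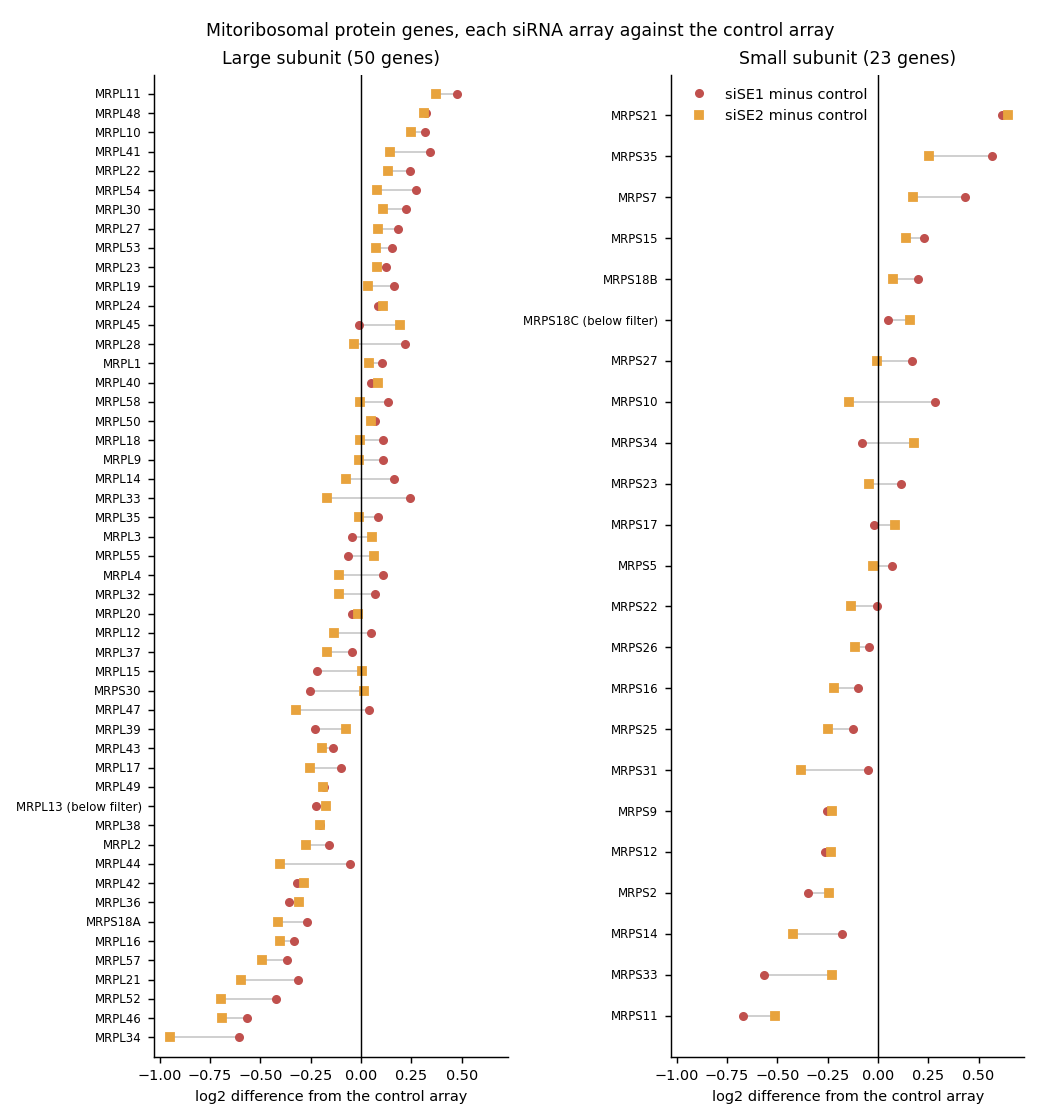
Log2 difference from the control array (horizontal axis) for the 50 large and 23 small subunit genes, with siSE1 as circles and siSE2 as squares, ordered by their mean. The values run from MRPL34 at -0.61 and -0.95 to MRPS21 at 0.62 and 0.65, with genes of both subunits on both sides of 0.

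The medians of the subunits lay close together. The 49 tested large subunit genes had a median of -0.0011 (0.05 with siSE1 and -0.01 with siSE2) and the 22 small subunit genes a median of -0.02 (-0.03 and -0.12). Of the 10 members at least 1.2-fold lower with both siRNAs, 9 belong to the large subunit, which holds 49 of the 71 genes tested. The 41 genes with a bacterial counterpart had a median of 0.02 and the 30 found only in mitochondria a median of -0.09; 5 of the first and 5 of the second were at least 1.2-fold lower with both siRNAs. With cyclic loess, quantile and equal-median scaling the first median was 0.07, 0.09 and 0.10 and the second -0.06, -0.05 and -0.02. The small subunit median was 0.04, 0.05 and 0.05, where the medians of all genes were 0.0043, 0.02 and 0.06. These differences between classes were not tested.

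The siSE1 and siSE2 arrays differed in a direction that many members shared. A difference between the siRNAs cannot be told apart from a technical one between the arrays, and members read on the same arrays are not replicates. Of the 71 genes, 52 read higher with siSE1 than with siSE2 (73.2%, against 48.9% of all genes), with no test, since each siRNA has 1 array. The median difference from the control was -0.0023 with siSE1 and -0.04 with siSE2, where all genes had medians of -0.02 and -0.01. On the siSE1 array 9 members stood at least 1.2-fold above the control and 13 as far below it (12.7% and 18.3%, against 13.9% and 20.3% of all genes). On the siSE2 array 3 stood above and 15 below (4.23% and 21.1%, against 11.4% and 16.5% of all genes). At 1.5-fold, 2 members lay lower with siSE1 (MRPL34 and MRPS11, with 4.27% of all genes) and 4 with siSE2 (MRPL34, MRPL46, MRPL52 and MRPL21, with 2.82% of all genes). Most of these gaps were small, with a median size of 0.12, as over all genes. The widest among tested members was that of MRPS10 (uS10), which read 8.34 with siSE1 and 7.92 with siSE2, against 8.06 on the control array. MRPL33 (bL33) read 7.03 with siSE1 and 6.62 with siSE2, against 6.79 on the control array. MRPL47 (uL29) differed from the control by 0.04 and -0.32, MRPL44, which has a fold of the RNase III family, by -0.05 and -0.40, and MRPS33, in the other order, by -0.57 and -0.23. The pseudogene MRPS31P5 differed by 0.16 and -0.44 at a level below the filter.

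The letters searched were more frequent in these promoters than in others, and members on both sides of the control held them. The ETS letters CCGGAAG were in 28 of 66 member windows (42.4%), in 18.2% of the windows of 10242 tested genes and in 10.3% of all 35116 windows in the RefSeq table. The YY1 letters AAGATGGC were in 18 member windows (27.3%, against 5.2% of tested genes), and the NRF1 letters GCATGCGC in 6 (9.09%, against 5.09%). The median difference was 0.0060 for the 27 tested members with the ETS letters and -0.0011 for the 38 without. Over all tested genes the medians were -0.07 with the ETS letters and -0.02 without. With the shorter ETS letters CCGGAA the order of the members turned, with medians of -0.04 with and 0.02 without, against -0.06 and -0.01 over all tested genes. For the YY1 letters the members had medians of -0.07 with and 0.02 without, against -0.09 and -0.03 over all tested genes. These differences were not tested. The ETS letters were in 12 of 27 members lower with both siRNAs, in 7 of 18 higher with both and in 8 of 20 with opposite signs. The YY1 letters were in 8, 4 and 6 of the same 27, 18 and 20 members. Of the 9 members with a window that were at least 1.2-fold lower with both siRNAs, 3 held the ETS letters and 5 the YY1 letters; of the 3 that were as much higher, 2 held the ETS letters and 0 the YY1 letters. A match describes the window and does not show binding.

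None of the listed genes of mitochondrial translation outside the MRPL and MRPS series passed over all genes (limma, adjusted). Of 5 further mitoribosome proteins whose symbols lie outside the MRPL and MRPS series, CHCHD1 differed by -0.38 ± 0.14 and PTCD3, which has RNA-binding repeats, by 0.30 ± 0.14. Among 27 assembly factors the median was -0.04, and it was -0.01 with cyclic loess, 0.02 with quantile scaling and 0.04 with equal medians. The medians of all genes were -0.019, 0.0043, 0.02 and 0.06 in the same order. At least 1.2-fold lower with both siRNAs were 2 of them and higher 0, where 11.4% and 6.76% of all genes were: MTERF4, which guides an RNA methyltransferase to the large subunit, differed by -0.34 ± 0.14, and MTERF3 by -0.33 ± 0.14. Among 14 translation factors (median -0.08, or -0.0017 with equal medians) MTFMT, which formylates the initiator methionyl-tRNA, read 7.84 with siSE1 and 7.89 with siSE2, against 8.43 on the control array (-0.56 ± 0.14, SE; limma, adjusted p = 0.0929). GFM1, an elongation factor, differed by 0.36 ± 0.15.

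The 19 mitochondrial aminoacyl-tRNA synthetases and partners had a median of -0.11, which was -0.04 with equal medians. The medians of all genes were -0.019 and 0.06. Lower with both siRNAs were 13 of the 19 and higher 4, where 41.7% and 36.4% of all genes were. AARS2 differed by -0.32 ± 0.14, SARS2 by 0.35 ± 0.14 and QRSL1, a subunit of the glutaminyl-tRNA amidotransferase, by -0.37 ± 0.15. Of 26 genes of mitochondrial transcription and RNA processing, 5 were at least 1.2-fold lower with both siRNAs and 1 higher, where 11.4% and 6.76% of all genes were. Their median was -0.01, or 0.07 with equal medians. TEFM, the mitochondrial transcription elongation factor, read 5.97 with siSE1 and 6.05 with siSE2, against 6.65 on the control array (-0.64 ± 0.14, SE; limma, adjusted p = 0.0701), and REXO2, an exonuclease of short RNAs, read 8.71 and 8.70 with the siRNAs, against 8.16 on the control array (0.54 ± 0.14; limma, adjusted p = 0.0962). Among the 13 regulators, YY1 differed by 0.37 ± 0.15 and PPARGC1B, a coactivator of mitochondrial genes, by -0.32 ± 0.16.

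The mitoribosomal genes were set beside the other protein complexes most like them. The 69 nuclear-encoded respiratory chain and ATP synthase subunits had a median of -0.13, with -0.14 for each siRNA, against -0.019 over all genes. With cyclic loess, quantile scaling and equal medians it was -0.07, -0.06 and -0.05. The medians of all genes moved too, to 0.0043, 0.02 and 0.06 in the same order. At least 1.2-fold lower with both siRNAs were 14 of the 69, and 0 were as much higher, where 11.4% and 6.76% of all genes were. COX7B, a cytochrome c oxidase subunit, read 6.24 with siSE1 and 6.22 with siSE2, against 6.93 on the control array (-0.71 ± 0.14, SE; limma, adjusted p = 0.0539). The 58 cytosolic ribosomal proteins measured, of 79 listed, had a median of -0.07, which was 0.0057 with equal medians. Their range ran from -0.35 to 0.24, against -0.78 to 0.63 for the mitoribosomal genes. The lists were not matched for signal level, so the ranges are not compared further. The differences between these lists were not tested. The mitochondrially encoded genes are not analysed here.

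**Figure D4:**
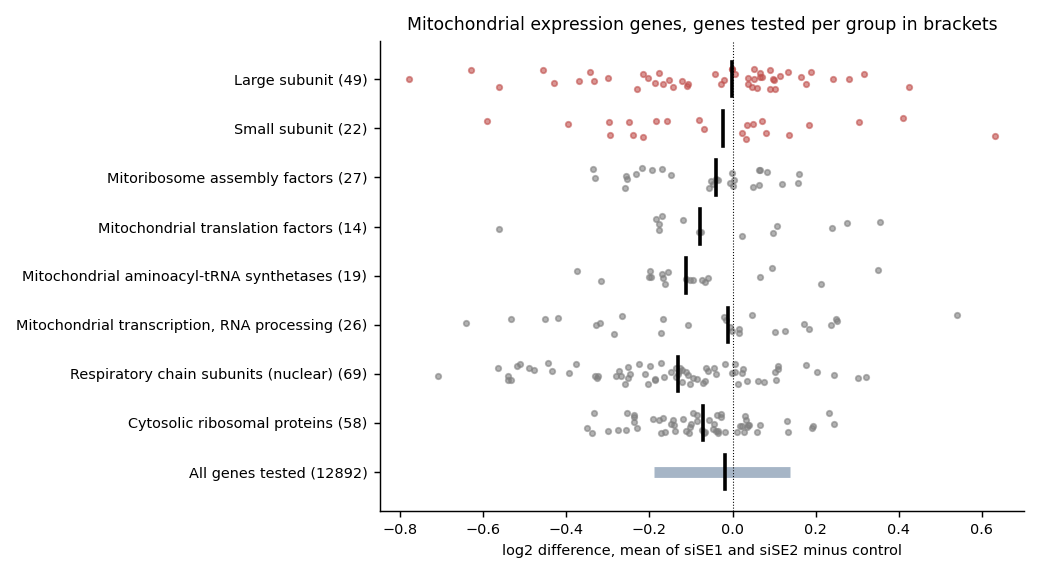
Mean log2 difference of the siRNA arrays from the control (horizontal axis), 1 point per tested gene, for the mitoribosomal subunits (red) and related lists (grey); black bars are medians and the blue bar covers the interquartile range of all 12892 genes tested. The large and small subunit medians lie at -0.0011 and -0.02, near the median of all genes at -0.019, and the respiratory chain median lies at -0.13.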

How the data were processed

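The authors deposited a table of log2 values for 33297 probe sets on 3 arrays, for which the submitters' processing notes name Affymetrix Expression Console; its version and algorithm are not stated in the labels. The log2 scale was read from the values, which run from 1.43 to 13.87 with array medians of 5.84 (siSE1), 5.84 (siSE2) and 5.80 (control). The platform annotation named 1 gene for 19460 probe sets, several for 1754 and none for 12083; 19429 of the first matched the GRCh38.p14 RefSeq gene table by gene identifier, used for current names. Probe sets of a gene were averaged, and 12892 genes with a mean at or above the 30th percentile were tested with limma 3.58.1 in R 4.3.3 (lmFit and eBayes, siSE1 and siSE2 against control, Benjamini-Hochberg over all of them, 0.05). The script was tested on simulated data, with changes larger than that of any member and the same variance on every array. That test does not cover changes of the sizes reported here or a control array that varies otherwise. The number of arrays limits the precision. Folds on single arrays have no test. Promoter windows are from RefSeq (GRCh38.p14) and were matched by gene identifier.

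Members and lists were chosen with earlier results of these data known. The text names the 12 members lower and the 12 higher that rank first by the smaller of their 2 changes, the 6 with the widest gap between siRNAs, members below the filter, paralogs and members picked by role, and up to 4 genes a list; MRPS14 and the head-to-head neighbours were named after their values were seen. Alternatives were 3 scalings, 2 other filters, the highest probe set, 2 variance priors, each siRNA alone, another fold, no pseudogenes and shorter ETS letters.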

Additional observations from a re-analysis of the deposited data

Results flagged for a closer look

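The probe set that names both MRPL51 and SPTLC1 lay outside the comparison because it names 2 genes, and it read above the control on both siRNA arrays. It read 11.76 with siSE1 and 11.89 with siSE2, against 11.64 on the control array, a mean difference of 0.18. The probe set that names MRPS24 and the read-through gene URGCP-MRPS24 read 10.02 with siSE1 and 9.73 with siSE2, against 9.72 on the control array, a mean difference of 0.15 that comes almost wholly from siSE1. Which of the named genes gives either signal cannot be told apart.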

How the results depend on the processing

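The median difference of the members, -0.0011 as deposited, was 0.0652 with cyclic loess, 0.0755 with equal array medians and 0.0824 with quantile scaling, where the medians of all genes were 0.0043, 0.06 and 0.02; alone, siSE1 gave -0.0023 and siSE2 -0.0436, and the 50th percentile filter gave 0.0060. MRPL12, at -0.04 as deposited, turned to 0.0319, 0.0349 and 0.0275 in the same order, with an adjusted p of 0.939, 0.924 and 0.947 (limma). Members at least 1.2-fold lower with both siRNAs were 10 as deposited, where 11.4% of all genes were. They were 6 with cyclic loess, 5 with equal medians and 6 with quantile scaling, where 9.63%, 7.38% and 8.59% of all genes were. Those higher were 3 as deposited and 5 with equal medians (6.76% and 11.7% of all genes), and ran from 3 to 9 on single arrays. At 1.3-fold 4 were lower and 1 higher, given without a share of all genes, so nothing is drawn from these counts. At 1.5-fold lower the count was 0 under each of the 3 scalings in place of 1. Shares of all genes under these scalings are not given, so nothing is drawn from that change. On single arrays the count was 2 with siSE1 and 4 with siSE2, where 4.27% and 2.82% of all genes were. At an unadjusted p under 0.05 (limma), lower members were 6 with cyclic loess, 6 with equal medians and 5 with quantile scaling in place of 10. The shares of all genes were 10%, 7.41% and 8.01% in place of 11.3%. Higher members were 5 with cyclic loess and 6 with equal medians in place of 3, with 7.02% and 11.2% of all genes in place of 6.46%. The count passing the adjusted test was 1 (MRPS21, differences of 0.68, 0.71 and 0.63) with cyclic loess, equal medians and the intensity trend, and 0 under the other 5 settings. With cyclic loess, equal medians and the intensity trend, 188, 165 and 181 of the 12892 genes tested passed. The causes were not tested. The shorter ETS letters CCGGAA were in 37 of 66 member windows (56.1%, against 28.2% of tested genes). No paired analysis was possible because the control has 1 array and the labels give it no replicate number. With 1 control array, an error on that array enters every difference here.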
